A study of Arabidopsis thaliana with 4 samples.

Results

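The genes described here are those of the Arabidopsis thaliana chloroplast genome that do not encode subunits of the photosynthetic machinery. They include genes for plastid ribosomal proteins (rps and rpl), for the core of the plastid-encoded RNA polymerase (rpo), and for single factors such as matK, clpP, accD, cemA, ccsA and the ycf genes. A probe set was a member when the genes that the platform annotation gives it lie on the chloroplast genome in the RefSeq gene table. Its gene symbol also had to start with none of psa, psb, pet, atp, ndh and rbcL. This rule gave 32 genes with 33 probe sets, out of 22810 probe sets on the array and 77 on the chloroplast genome. No member was left out for a low signal. In these bulk samples, a different number of cells of a type and a different amount of RNA per cell cannot be told apart.

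The arrays compared an3-4 with wild type (WT), with 2 arrays for each genotype. All 4 were Affymetrix expression arrays of total RNA from the first leaf primordia, taken 7 days after sowing. an3-4 is a mutant allele of ANGUSTIFOLIA3, a coactivator of transcription that keeps cells of the young leaf dividing. The labels give both genotypes the ecotype Col-0 and growth at 22 °C in continuous light, and name no treatment or transgene for either. They do not say that arrays of a genotype came from separate plants or cultures, so the p-values below rest on a spread between arrays that could be technical alone.

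Plastids keep a small genome of their own and a bacterial type of ribosome to translate it. Some ribosomal proteins are made in the plastid and the others are encoded in the nucleus and imported. Transcription is shared between a plastid-encoded polymerase, whose core subunits come from the rpo genes, and a phage-type polymerase encoded in the nucleus, which is known to transcribe rpoB, accD and ycf2. In a young leaf, build-up of this expression machinery is known to precede the build-up of the photosynthetic complexes. Most plastid mRNAs arise by cutting long transcripts of several genes. They lack the stable poly(A) tails of nuclear mRNAs, and a probe set reads only the transcript stretch it matches.

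rps4 stood out among the members. Its signal in an3-4 was more than double that in WT, and its change was the largest of the 77 chloroplast probe sets. Of the 33 members 3 rose in an3-4 (rps4, a probe set of rps12, and accD), 1 fell (ccsA) and 29 were not called. A call means a Benjamini-Hochberg adjusted p under 0.05 in limma over all 22746 probe sets that are not controls. In all, 5.16% of those probe sets were called, 2.66% as higher and 2.51% as lower, against 9.09% of members as higher and 3.03% as lower. All 33 members also lay above the dimmest 40% of probe sets. With that part of the table left out, 12.4% of probe sets and 15.2% of members were called, so the members' share lay near that of the brighter probe sets.

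The median log2 fold change of the members was 0.07, and that of all probe sets was 0.02. The members' median log2 signal was 10.19 and 10.03 on the an3-4 arrays, against 10.09 and 9.98 on the WT arrays. These array medians overlapped, and their SD within a genotype was 0.10. Of the members 26 had a positive log2 fold change and 7 a negative one. Both an3-4 arrays lay above both WT arrays for 14 members, 42.4% of them, against 25% of all probe sets. Both lay below for 2 members (ccsA and rpl14), 6.06% of them, against 20.8% of all probe sets. Of the 44 photosynthesis probe sets of the chloroplast genome, 24 lay above and 2 below in this way, and 37 had a positive log2 fold change. The excess of higher values was thus not particular to the members. These counts depend on how the arrays are scaled. When each array was centred on the median of its chloroplast probe sets, the members' median log2 fold change was -0.05, with 13 positive and 20 negative values, and the calls over all probe sets were 195 higher and 409 lower in place of 604 and 570.

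**Figure D1:**
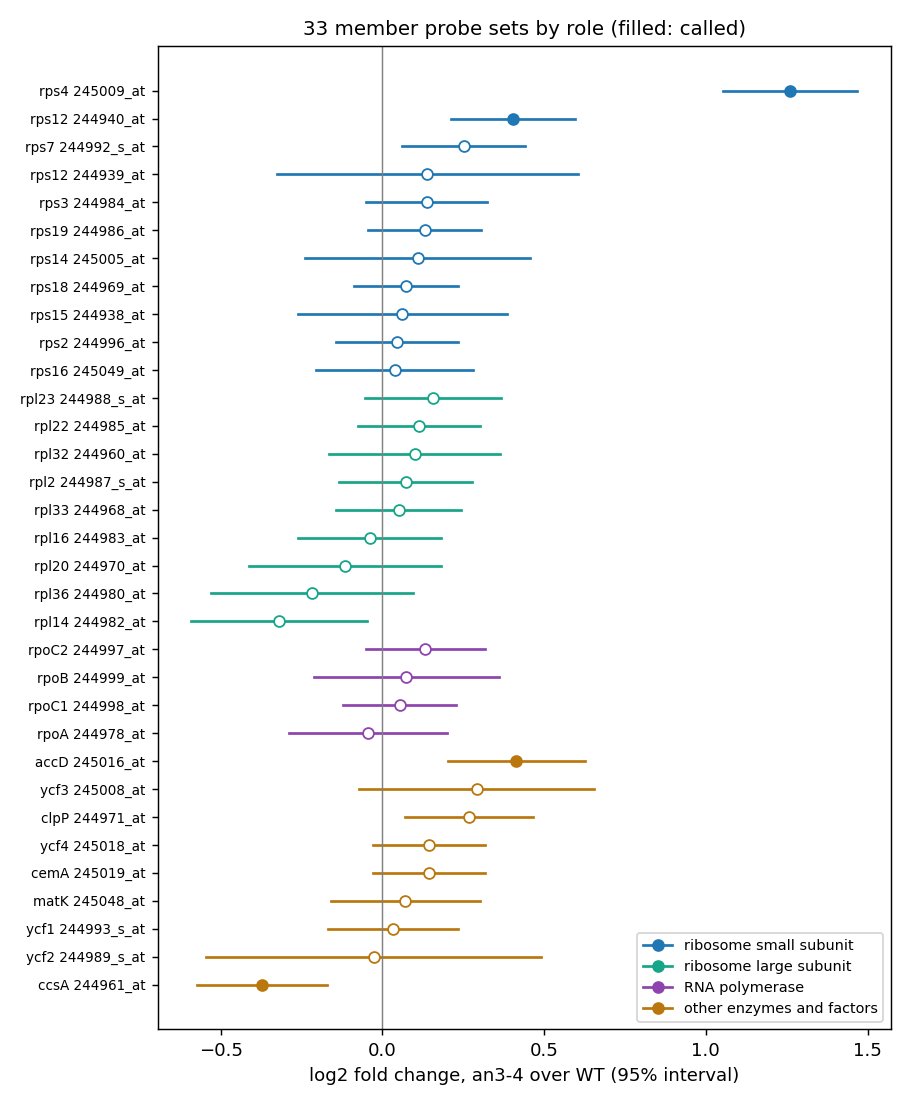
Log2 fold change of an3-4 over WT for the 33 member probe sets, 1 row each, grouped by role; points are limma estimates, lines are 95% intervals, and filled points were called. rps4 lies at 1.26, apart from the rest, which run from -0.37 to 0.41.

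The small ribosomal subunit had 11 probe sets for 10 plastid genes. Of these, 2 rose and none fell, against 2.66% of all probe sets called higher and 2.51% called lower. The median log2 fold change of the 11 was 0.13. rps4 (ArthCp024), which encodes S4, a protein that binds early in the assembly of the bacterial small subunit, had signals of 4901 and 4967 on the an3-4 arrays. Its signals on the WT arrays were 1943 and 2184. The genotypes were far apart beside the spread within each, and the an3-4 arrays differed by only 0.02 on the log2 scale. The mean signal was 4934 ± 46.7 in an3-4 and 2063 ± 170 in WT (SD, n = 2 arrays each). The log2 fold change was 1.26 ± 0.09 (SE, limma adjusted p = 1.40e-04), a 2.40-fold difference with a 95% interval of 1.05 to 1.47 on the log2 scale. Signals here and below are the deposited values rescaled so that every array has the same trimmed mean.

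The rise of rps4 was not shared at its size by its neighbours. In gene order the nearest measured genes were ycf3 on one side and ndhJ, a subunit gene of the NADH dehydrogenase-like complex, on the other. ycf3 had a log2 fold change of 0.29 and ndhJ of 0.24, and neither was called. The value of ycf3 depended on single arrays, at 0.55 without an3-4 replicate 1, 0.036 without an3-4 replicate 2, 0.44 without WT replicate 1 and 0.14 without WT replicate 2. The mitochondrial genome also holds a gene named rps4, but the annotation ties this probe set to the chloroplast gene alone. The same holds for 8 member genes with a mitochondrial namesake, whose 9 probe sets include both called ribosomal protein probe sets. The part of cross-hybridization was not tested.

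**Figure D2:**
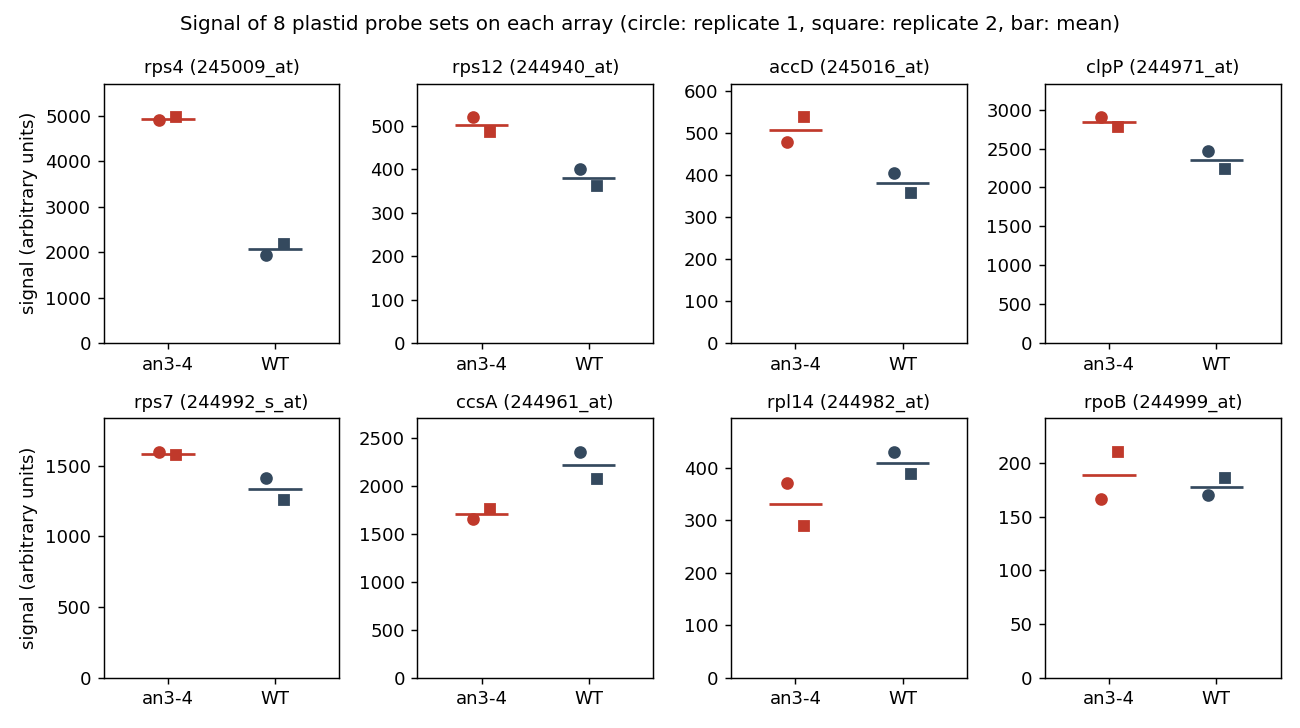
Signal in arbitrary units on each array for 8 member probe sets, with an3-4 left of WT; circles are replicate 1, squares replicate 2, bars the means, and each axis starts at 0. rps4 shows the widest gap, rps12, accD, clpP and rps7 lie higher in an3-4, ccsA and rpl14 lie lower, and rpoB overlaps.

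rps12 encodes S12, a protein of the decoding centre. Its mRNA is joined by trans-splicing from a 5′ exon near clpP and 3′ exons near rps7. The brighter of its 2 probe sets had signals of 520 and 487 in an3-4, against 400 and 361 in WT. It rose by 0.41 ± 0.08 on the log2 scale (limma adjusted p = 0.0267). The dimmer probe set had 89.7 and 142 in an3-4, against 110 and 95.6 in WT. The genotypes overlapped on the dimmer one, its log2 fold change was 0.14 ± 0.21, and it was not called. The probe sets of this gene therefore differed in their call, but the interval of the dimmer one, from -0.32 to 0.60, includes the estimate of the brighter one.

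rps7, which encodes a protein of the head of the small subunit, lies in the inverted repeat, and its probe set reads both copies. It had signals of 1596 and 1576 in an3-4, against 1413 and 1255 in WT. Both an3-4 arrays lay above both WT arrays, but the log2 fold change of 0.25 ± 0.08 was not called (limma adjusted p = 0.147). rps3, another protein of the head of the subunit, had 2227 and 2378 in an3-4, against 2151 and 2037 in WT, a log2 fold change of 0.14 that was not called. rps2, rps14, rps15, rps16, rps18 and rps19, which encode further proteins of the subunit, had log2 fold changes from 0.04 to 0.13 and were not called.

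All 9 plastid genes of the large ribosomal subunit were measured and none was called in limma, against 5.16% of all probe sets. An unadjusted p under 0.05 was found for 1 of the 9 and for 3915 of all 22746 probe sets. The group had 5 positive and 4 negative values around a median of 0.05 on the log2 scale. rpl14, which encodes a protein at the face between the subunits, was the member at an unadjusted p under 0.05. It had signals of 372 and 289 in an3-4, against 430 and 389 in WT. Both an3-4 arrays lay below both WT arrays, but the log2 fold change, -0.32 ± 0.12, was not called (limma adjusted p = 0.205). The size of this difference rested on 1 array, since it was -0.50 without an3-4 replicate 1, where it passed, and -0.14 without an3-4 replicate 2. rpl23, whose protein lies at the exit of the ribosomal tunnel, had 3564 and 3398 in an3-4, against 3301 and 2954 in WT, and a log2 fold change of 0.16 ± 0.09 that was not called. rpl2, a protein of the peptidyl transferase region, had 4931 and 4810 in an3-4, against 4694 and 4569 in WT. Its groups did not overlap, yet its log2 fold change was only 0.07.

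**Figure D3:**
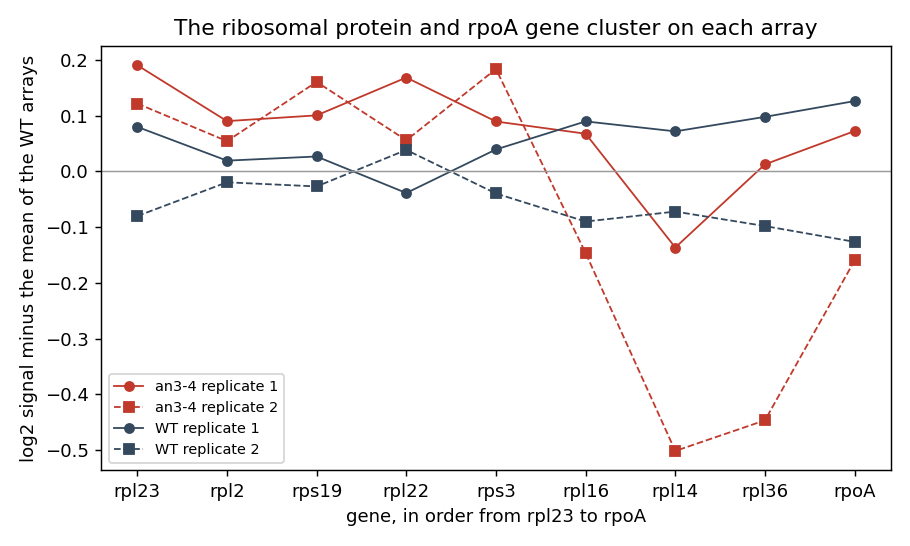
Log2 signal on each array minus the mean of the WT arrays for 9 genes of the ribosomal protein and rpoA cluster, from rpl23 to rpoA; an3-4 in red, WT in dark blue, replicate 1 with solid and replicate 2 with dashed lines. The first 5 genes lie above both WT arrays on both an3-4 arrays, and from rpl16 on an3-4 replicate 2 lies below the other arrays, at -0.50 at rpl14.

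Most plastid ribosomal protein genes thus had small estimated differences between the genotypes, with intervals that still allow moderate ones. Over all 33 members the median half-width of the 95% interval was 0.21 on the log2 scale. Counting both subunits, 2 of 20 probe sets rose, none fell, and the median log2 fold change was 0.09. Over all probe sets, 2.66% were called higher and 2.51% lower.

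The genes of the RNA polymerase core were all measured and none was called, against 5.16% of all probe sets. None had an unadjusted p under 0.05 in limma, against 3915 of all 22746 probe sets. rpoA, for the alpha subunit that starts core assembly in the bacterial enzyme, had signals of 1049 and 893 in an3-4, against 1089 and 914 in WT. rpoB, for the beta subunit, had 167 and 210 in an3-4, against 170 and 186 in WT. rpoC1, for the beta′ subunit, had 1256 and 1200 in an3-4, against 1223 and 1143 in WT. In each of these genes the arrays of the genotypes overlapped. rpoC2, for the beta″ subunit, had 407 and 378 in an3-4, against 365 and 351 in WT, and did not overlap. The log2 fold changes were -0.04 for rpoA, 0.07 for rpoB, 0.05 for rpoC1 and 0.13 for rpoC2. The widest of their 95% intervals, that of rpoB, ran from -0.21 to 0.36, so a change of the size seen for rps4 lay outside the interval of each polymerase gene.

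Among the other enzymes and factors, accD (ArthCp031) rose. It encodes the beta subunit of the plastid acetyl-CoA carboxylase, which makes malonyl-CoA for fatty acid synthesis. Its signals were 480 and 538 in an3-4, against 406 and 359 in WT. Both an3-4 arrays lay above both WT arrays, and the log2 fold change was 0.41 ± 0.09 (limma adjusted p = 0.0371). In gene order accD stands between rbcL, for the large subunit of Rubisco, and psaI, for a small subunit of photosystem I. rbcL had a log2 fold change of 0.27 and was not called, and psaI rose by 0.35 (limma adjusted p = 0.0266). Further along in the same direction, ycf4 and cemA each had 0.14 and were not called.

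ccsA (ArthCp073) was the member that fell. It encodes a protein needed for attachment of haem to c-type cytochromes in the plastid. Its signals were 1658 and 1760 in an3-4, against 2351 and 2077 in WT. Both an3-4 arrays lay below both WT arrays, and the log2 fold change was -0.37 ± 0.09 (limma adjusted p = 0.0482). Neither of its neighbours had a negative log2 fold change. rpl32 had a log2 fold change of 0.10 and was not called, and ndhD, a subunit gene of the NADH dehydrogenase-like complex, rose by 0.36 (limma adjusted p = 0.0250).

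**Figure D4:**
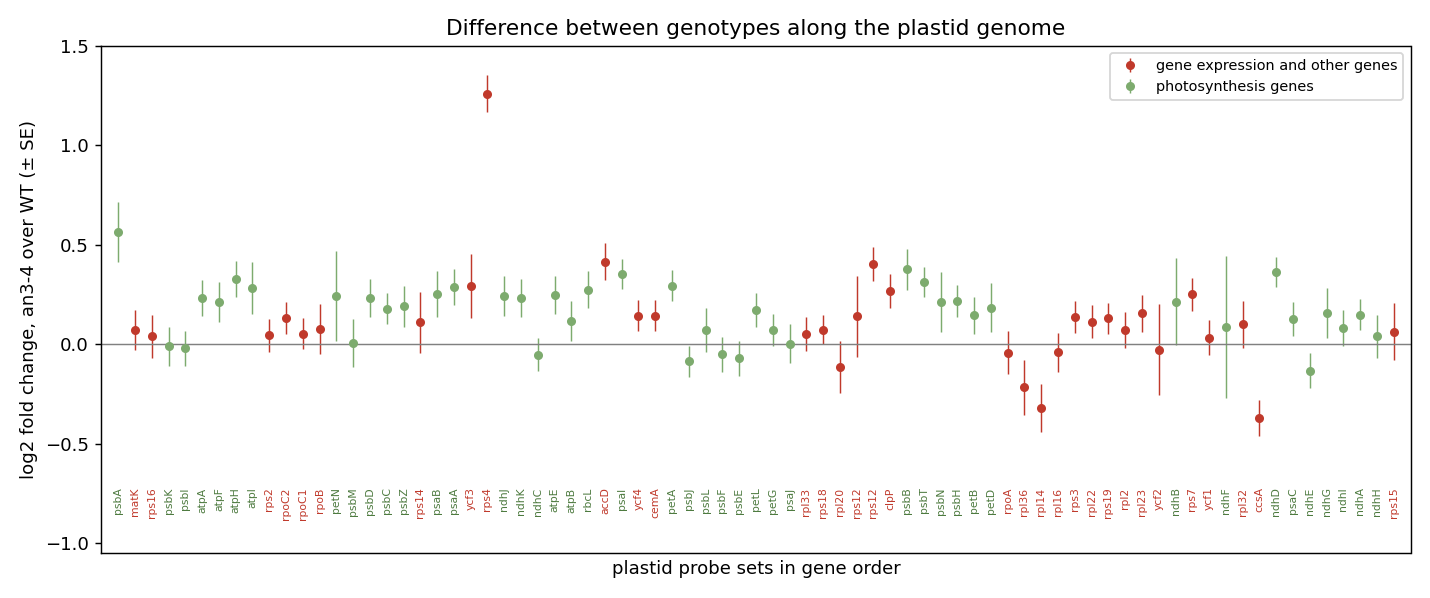
Log2 fold change of an3-4 over WT (± SE) for all 77 chloroplast probe sets in gene order, with gene expression and other genes in red and photosynthesis genes in green. rps4 lies at 1.26 between ycf3 at 0.29 and ndhJ at 0.24, and ccsA at -0.37 lies beside ndhD at 0.36.

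The calls of accD, rps12 and ccsA lay close to the threshold. Each was called in 6 of 14 alternative fits, with adjusted p in limma up to 0.513 for accD, 0.542 for rps12 and 0.786 for ccsA, the values as deposited. None of the 3 changed direction in any of these fits. The call of accD was lost without WT replicate 2 (log2 fold change 0.32) or an3-4 replicate 2 (0.33), and that of rps12 without WT replicate 2 (0.33), an3-4 replicate 1 (0.36) or an3-4 replicate 2 (0.45). ccsA lost its call without WT replicate 1 (-0.28), an3-4 replicate 1 (-0.33) or an3-4 replicate 2 (-0.41). rps4 was called in 13 of the 14 fits, with log2 fold changes from 1.14 to 1.34. The exception was eBayes without an intensity trend, which called none of the 22746 probe sets and gave rps4 an adjusted p of 0.187.

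**Figure D5:**
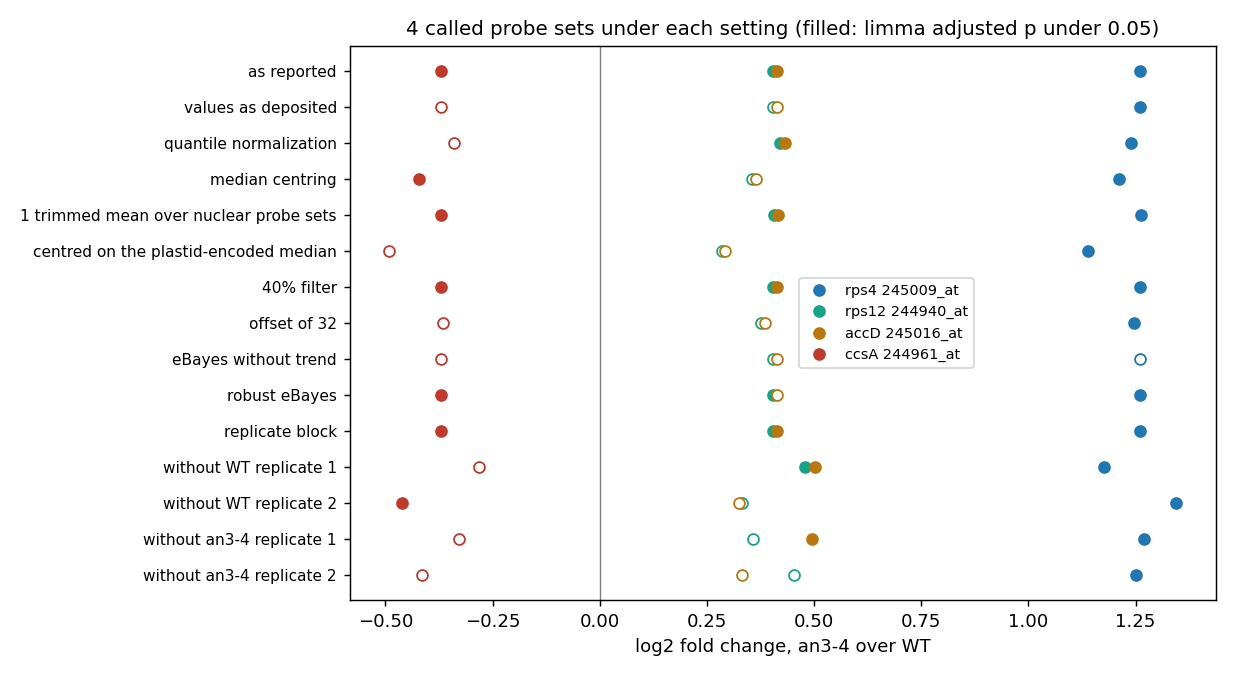
Log2 fold change of an3-4 over WT for the 4 called member probe sets under each setting, 1 row per setting; filled points had a limma adjusted p under 0.05. rps4 stays between 1.14 and 1.34, while accD, rps12 and ccsA move in and out of the call without changing sign.

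clpP encodes the catalytic subunit of the plastid Clp protease and lies next to the 5′ exon of rps12. Its signals were 2901 and 2772 in an3-4, against 2475 and 2241 in WT. The groups did not overlap, and the log2 fold change of 0.27 ± 0.09 was not called (limma adjusted p = 0.141). It passed in 2 of the 14 alternative fits, those with the 40% filter (adjusted p = 0.0369) and with the replicate block (adjusted p = 0.0428).

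ycf3 and ycf4 encode assembly factors of photosystem I. ycf3 had 327 and 466 in an3-4, against 354 and 287 in WT, and ycf4 had 1164 and 1076 in an3-4, against 1018 and 1008 in WT. The genotypes overlapped for ycf3 and not for ycf4. cemA, for a protein of the inner envelope, had 1490 and 1531 in an3-4, against 1324 and 1411 in WT, also without overlap. None of the 3 was called.

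matK, which encodes a maturase for group II introns, had 2335 and 2582 in an3-4, against 2533 and 2157 in WT. ycf1, for a component of the inner envelope protein import machinery, had 1224 and 1418 in an3-4, against 1313 and 1263 in WT. Both overlapped, with log2 fold changes of 0.07 and 0.03. ycf2, for a large protein of an import-associated motor complex, was the dimmest member, at the 45.1 percentile of mean signal. It had 48.1 and 53.6 in an3-4, against 44.9 and 59.5 in WT, and its interval, from -0.54 to 0.49 on the log2 scale, was the widest among the members. Its copies in the inverted repeat share 1 probe set, as those of ycf1 and rps7 do.

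The genes known for transcription by the nuclear-encoded polymerase alone are accD, rpoB, rpoC1, rpoC2 and ycf2. Of these 5, accD rose and the others were not called, against 2.66% of all probe sets called higher and 2.51% called lower. Their median log2 fold change was 0.07, the same as that of all members.

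The photosynthesis genes of the chloroplast genome had 44 probe sets. Of these, 3 rose (psaI, psbT and ndhD) and none fell, against 2.66% of all probe sets called higher and 2.51% called lower. That count of 3 was 0 with the values as deposited, with median centring, with centring on the chloroplast median, with the offset of 32, without the intensity trend and without WT replicate 2. It was 1 without either an3-4 array, 9 with the 40% filter and 8 with the replicate block. Their median log2 fold change was 0.19, beside 0.07 for the members, and the difference between these medians was not tested. psbA, for the D1 protein of photosystem II, had the largest log2 fold change among them, 0.56, and was not called. Of 23 mitochondrial probe sets, for 16 genes, 6 rose and none fell, against 2.66% of all probe sets called higher and 2.51% called lower. The median log2 fold change of the 23 was 0.62. Their log2 fold changes ran from -2.80 to 2.74. In 8 of the 23 the genotypes overlapped, against 12321 of all 22746 probe sets. The mitochondrial calls were not followed through the alternative fits. The median SE was 0.36, against 0.09 for the members. Many had low signals, such as cox2, which rose at 36.3 and 32.4 in an3-4, against 6.26 and 8.01 in WT. cox2 was the dimmest of the 6 called, at the 27.5 percentile of mean signal. nad9 lay at 47.5 and the called nad1 probe set at 41.8. The other called probe sets were brighter, with ccb382 at the 88.5 percentile, cox1 at 61 and ccb452 at 60.4. Their log2 fold changes were 0.50, 1.22 and 1.07 (limma adjusted p = 0.00967, 0.00123 and 0.00525). 

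The nuclear genes that act together with these plastid genes were covered by few named probe sets. The lists were for polymerases and sigma factors, polymerase-associated proteins, plastid ribosomal proteins, Clp subunits, acetyl-CoA carboxylase subunits and regulators of chloroplast development. They held 80 genes, of which 13 had a probe set that the annotation at hand names for 1 gene. That annotation gives no gene for 8730 probe sets and several for 493, so the array may read more of the 80. None of the 13 was called in limma, against 5.16% of all probe sets. Of the 13, 1 had an unadjusted p under 0.05, against 3915 of all 22746 probe sets. That gene was AT5G24490, on the plastid ribosome list, with signals of 1670 and 1406 in an3-4, against 1160 and 1289 in WT. It had 0.33 ± 0.10 on the log2 scale (limma adjusted p = 0.116). Over the 10 nuclear genes of plastid ribosomal proteins the median log2 fold change was 0.00. AT1G29070, for L34, had -0.17 ± 0.08. CLPP4 and AT1G09130, for Clp subunits, had -0.08 and -0.14, and AT5G15700, a phage-type polymerase gene, had 0.47 ± 0.47 at signals of 21.5 and 23.9 in an3-4, against 11.5 and 23.5 in WT. The lists for polymerase-associated proteins, the carboxylase and regulators had no named probe set and were not analysed here.

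As deposited, the trimmed mean signal was 143 for replicate 1 and 169 for replicate 2 of either genotype, and all arrays were brought to 155 before the comparison. RNA integrity was read from 6 pairs of control probe sets, which set the 3′ end of an actin, GAPDH or ubiquitin mRNA against its 5′ end. Of the pairs 3 had a higher 3′ to 5′ ratio on both an3-4 arrays than on both WT arrays. The mean differences ran from -0.02 to 0.23 on the log2 scale, and their part in the results above was not tested. Of 10 marker genes for other tissue 4 were named. RCA, the Rubisco activase gene of photosynthetic tissue, had 5046 and 4792 in an3-4, against 4794 and 4688 in WT, while those for root (EXPA7), meristem (CLV3) and seed storage (PAP85) were at most 29.1 on any array. AN3 had no probe set in the annotation at hand, so the labels of the genotypes could not be checked against the mutated gene.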

How the data were processed

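Each probe set has 1 deposited intensity per array, unlogged, which the authors computed with MAS5 per the submitters' processing notes; its version and scaling target are not given in the sources used here. Same-numbered arrays formed 2 pairs that lay on different scales, so each array was multiplied to 1 trimmed mean (2% of values off each end). log2 signals were compared in limma 3.58.1 under R 4.3.3 (lmFit, eBayes with an intensity trend, genotype as the only term) over 22746 probe sets, without 64 controls and without a signal filter. The fit had 2 residual and 6.96 prior degrees of freedom. With 2 arrays per genotype the smallest p of an exact permutation test is 0.333. No detection calls were used. Levels of different probe sets were compared only to rank them as brighter or dimmer, not as amounts of transcript. The number of arrays limits the precision.

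Symbols came from the platform annotation, updated through gene identifiers to the RefSeq table of TAIR10.1. That table also gave the genome, locus tag and gene order of each gene, and so decided which probe sets were members. Probe sets counted as mitochondrial where the table placed their gene on the mitochondrial genome. Where it lacked their gene identifier, a symbol or synonym listed on that genome was enough. All those counted came in by this second way. Genes given in full were all called members, further members without overlap between genotypes until 12 were reached, and 13 genes for the polymerase and single factors; from each nuclear list the called genes, up to 4, or else the 2 with the smallest p; other members were named in addition after their values were seen. Members, lists and the scaling were chosen with earlier results of these data known. Alternatives were other scalings, the 40% filter, an offset of 32, other variance models, the replicate block, 1 probe set per gene and leaving out each array. Scripts were tested on simulated data. Figures were drawn with matplotlib 3.10.9.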

Additional observations from a re-analysis of the deposited data

How the results depend on the processing

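The 3 higher and 1 lower members became 1 and 0 with the values as deposited, 1 and 0 with each array centred on the chloroplast median, 1 and 0 with an offset of 32, and 0 and 0 without the intensity trend, where 2 members had an unadjusted p under 0.05 in limma. Median centring gave 1 and 1, quantile normalization 3 and 0, robust eBayes 2 and 1, the 40% filter 4 and 1, and the replicate block 4 and 2. The share of members called was 3.03% as deposited, against 2.37% of all probe sets. It was 3.03% against 2.66% with the chloroplast median, and 3.03% against 2.62% with the offset. Median centring gave 6.06% against 4.98%, quantile normalization 9.09% against 4.73%, and robust eBayes 9.09% against 4.87%. The replicate block gave 18.2% against 8.03%. Without any 1 of the arrays there were 1 to 3 higher members and 0 to 1 lower. The members' median log2 fold change moved to -0.046 when centred on the chloroplast median, which also moved the median of all probe sets from 0.02 to -0.10, and was 0.07 to 0.14 with 1 array left out. The nuclear lists had 1 call with the 40% filter and 1 with the replicate block.

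No called member changed sign. Of the 29 members that were not called, 3 turned with median centring, ycf1 (-0.016), rps2 and rps16, and 13 when centred on the chloroplast median, among them matK (-0.050), rpoC1 (-0.067), rpoB (-0.046) and ycf1 (-0.088). Without 1 array, 3 to 11 members turned, the most without an3-4 replicate 2; matK ran from -0.045 to 0.19, rpoA from -0.17 to 0.083, rpoB from -0.091 to 0.24, ycf1 from -0.073 to 0.14 and ycf2 from -0.23 to 0.18. The causes were not tested.

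Over all probe sets, 604 higher and 570 lower calls became 264 and 276 as deposited, 477 and 656 with median centring, 195 and 409 when centred on the chloroplast median, 295 and 300 with the offset, and 967 and 859 with the replicate block. The labels tie same-numbered arrays by number alone, though as deposited these shared a scale. With that scale removed, the differences between replicates of an3-4 and WT correlated at -0.01 over probe sets. With the replicate block rpl14 passed at -0.32 (limma adjusted p = 0.0310) and clpP at 0.27, and rps4 kept its call at 1.26 (limma adjusted p = 1.01e-07).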

Other observations

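The genes from rpl23 to rpoA form a cluster like the bacterial S10 operon, with 9 genes measured here. The 5 members from rpl23 to rps3 had log2 fold changes from 0.07 to 0.16, and on each of them both an3-4 arrays lay above both WT arrays. The same separation was found for 25% of all probe sets and for 24 of the 44 photosynthesis probe sets of the chloroplast genome. Genes of a cluster can share a transcript, so the 5 may not be separate observations. The 4 members from rpl16 to rpoA had log2 fold changes from -0.32 to -0.04, and for 3 of them the genotypes overlapped. None of the 9 was called in limma, with 1 at an unadjusted p under 0.05, against 3915 of all 22746 probe sets. The cluster was divided at this point after its values were seen. The gap between these stretches came from 1 array. Relative to the mean of the WT arrays, the median of the first 5 minus the median of the last 4 was 0.06 and 0.43 on an3-4 replicates 1 and 2, against -0.07 and 0.07 on WT replicates 1 and 2.

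Dim members also differed between the an3-4 arrays. For the 5 members under the 75th percentile of mean signal (rpoB, rps14, rps15, ycf2 and the dimmer rps12 probe set), an3-4 replicate 2 lay above replicate 1 in all 5, by 0.15 to 0.66 on the log2 scale. On the WT arrays replicate 2 lay above replicate 1 in 3 of the 5, and the arrays differed by 0.02 to 0.41. Over all 33 members, replicate 2 lay above replicate 1 in 17 on the an3-4 arrays and in 8 on the WT arrays. None of the 5 was called in limma, and none had an unadjusted p under 0.05, against 3915 of all 22746 probe sets. The difference between the an3-4 arrays was not particular to the members. Among photosynthesis probe sets under the 75th percentile, an3-4 replicate 2 also lay above replicate 1 for atpI, petN, petD, ndhB and ndhF. It lay below for psbN and ndhH. The share over all dim probe sets was not computed.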
